A study of Homo sapiens with 6 samples.

Results

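An antisense RNA is transcribed from the strand opposite to another gene, and its symbol usually joins the name of that gene to AS and a number. The table of HCC827 RNA-seq values lists 28395 genes, of which 1002 carry such a symbol. The 260 antisense RNAs described here were chosen by their measured signal, with a mean over the 6 libraries that reached 20, and the other 742 fell below that mean. The symbol before the hyphen names the partner gene, and 240 different partners could be tested in 241 pairs. HCC827 is an established lung adenocarcinoma cell line from ATCC that carries an activating EGFR deletion. All cells were grown in the same medium, then 3 samples received DMSO, the vehicle, and 3 received the EGFR kinase inhibitor erlotinib at 1 μM, each for 24 h. The labels number the samples of each condition, but do not say whether they came from separate cultures, so p-values measure the spread between these libraries. mRNA was enriched with oligo(dT) beads, so antisense RNAs without a poly(A) tail were largely outside the measurement.

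Reads assigned to genes numbered 20858083, 24641819 and 21172884 in the DMSO libraries, and 21944007, 20760204 and 21678395 in the erlotinib libraries. A signal is the reads of a gene divided by 1 size factor of its library, so a signal of 20 rests on roughly that many reads. The strand setting of the counting is not given in the sources used here, and reads from the stretch where an antisense RNA and another gene overlap therefore cannot be told apart. Of the exonic bases of an antisense RNA, the median share that also lay in the exons of another gene was 8.15%, and the median share inside the body of another gene was 43.3%. In bulk RNA, fewer cells expressing a gene and less RNA per cell cannot be told apart.

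All 6 epithelial markers of a fixed list were abundant, and 4 of them fell with erlotinib. EPCAM, an epithelial adhesion protein, had signals of 10104, 9813 and 9638 in DMSO and 9802, 9268 and 9386 with erlotinib and did not pass the test, nor did CDH1, E-cadherin (log2 fold change 0.14). The keratins KRT8 (-0.83), KRT18 (-1.25), KRT19 (-0.39) and KRT7 (-0.63) fell. KRT7 was the most abundant of them, with a mean of 79897 with erlotinib. Among leukocyte markers, PTPRC, CD3E and LYZ had at most 5.62 in any library, and the fibroblast markers COL1A2 and DCN at most 2.77. COL1A1, a collagen chain of fibroblasts, was higher with erlotinib (log2 fold change 1.47). Of 3 endothelial genes, VWF was higher, at signals of 0.929 to 7.49 in DMSO and 21.5 to 35.1 with erlotinib, PECAM1 had means of 15.7 and 10.4 and did not pass the test (log2 fold change -0.55, limma adjusted p = 0.348), and CDH5 was below the signal tested. The part of those cell types in the results below was not tested. Targets of EGFR and MAPK signalling marked the treatment, with DUSP6, a phosphatase that dampens ERK, at 1387, 1418 and 1368 in DMSO and at 67.4, 63.4 and 74.0 with erlotinib.

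Antisense RNAs arise in a few arrangements. Many start at the promoter of a protein-coding gene and run away from it, since active promoters often fire in both directions. Others start inside the partner or beyond its end and run back through it, where transcription of one strand can meet that of the other. Some act on their neighbour by pairing with its RNA, by recruiting chromatin factors or by the act of transcription itself, some act elsewhere as scaffolds or as decoys for microRNAs, and for most no function is established.

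The stretch between the starts of a divergent pair is the DNA that both genes share as upstream sequence. It is printed here for 6 pairs, chosen after their values were seen, in which the antisense RNA and the gene on the other side both passed the test. In 4 of them the signals moved in opposite directions, in 1 both were higher and in 1 both were lower with erlotinib. Among all antisense RNAs, 151 had a tested gene that starts within 1 kb on the opposite strand. Of these 151 pairs, 45 were called in the same direction and 24 in opposite directions. Sequences are RefSeq, build GRCh38.p14, written 5′ to 3′ on the strand of the antisense RNA, and capitals mark a fixed motif on either strand. CCDC18-AS1 (log2 fold change 2.64) and DR1 (-0.85), chr1:93345812-93345906, minus strand, with CCGGAAG, the core bound by ETS factors, found once on each strand. PTGES2-AS1 (2.85) and PTGES2 (-0.69), chr9:128128441-128128528, plus strand, with no fixed motif. SSSCA1-AS1 (1.24) and SSSCA1 (-0.83), chr11:65570414-65570476, minus strand, with TGACGTCA, the cAMP response element. KDM4A-AS1 (-1.80) and ST3GAL3 (0.50), chr1:43707342-43707535, minus strand, with no fixed motif. TMEM51-AS1 (1.79) and TMEM51 (0.62), chr1:15152465-15152565, minus strand, with no fixed motif. RNASEH1-AS1 (-0.98) and RNASEH1 (-0.96), chr2:3558334-3558385, plus strand, with no fixed motif.
CCDC18-AS1 and DR1: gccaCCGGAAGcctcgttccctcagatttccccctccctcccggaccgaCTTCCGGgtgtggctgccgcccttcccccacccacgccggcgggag
PTGES2-AS1 and PTGES2: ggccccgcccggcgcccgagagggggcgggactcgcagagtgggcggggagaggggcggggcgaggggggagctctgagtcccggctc
SSSCA1-AS1 and SSSCA1: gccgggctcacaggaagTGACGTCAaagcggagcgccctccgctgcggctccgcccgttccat
KDM4A-AS1 and ST3GAL3: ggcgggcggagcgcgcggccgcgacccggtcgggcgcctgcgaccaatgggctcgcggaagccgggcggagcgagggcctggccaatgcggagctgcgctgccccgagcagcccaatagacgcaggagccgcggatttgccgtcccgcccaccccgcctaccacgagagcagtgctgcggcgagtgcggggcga
TMEM51-AS1 and TMEM51: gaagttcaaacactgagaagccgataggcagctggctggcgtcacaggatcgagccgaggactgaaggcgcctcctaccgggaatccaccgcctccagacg
RNASEH1-AS1 and RNASEH1: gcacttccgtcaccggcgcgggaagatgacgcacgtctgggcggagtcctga

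With erlotinib, 126 of the 260 antisense RNAs were higher, 38 were lower and 96 did not pass the threshold (limma on log2(signal + 1), Benjamini-Hochberg adjusted p under 0.05 over the 14215 genes whose mean signal reached 10). This is 48.5% higher and 14.6% lower, beside 35.3% higher and 35.4% lower among all genes tested. Most antisense RNAs were of low signal, with a median of 76.7 and quartiles of 41.5 and 179, while the median over all genes tested was 572. Among the 2207 genes of any kind whose mean signal lay between those quartiles, 47.1% were higher and 17.7% were lower, and of the 130 antisense RNAs in that range 50% were higher and 13.8% lower. The shares of the antisense RNAs were therefore near those of genes of like signal. The median log2 fold change was 0.51 for the antisense RNAs, 0.45 for the genes of like signal and 0.02 for all genes. When each library was scaled to its total count, the median of all genes moved to 0.19 and that of the antisense RNAs to 0.68, and the calls became 150 higher and 28 lower among antisense RNAs and 6156 higher and 3955 lower among all genes.

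**Figure D1:**
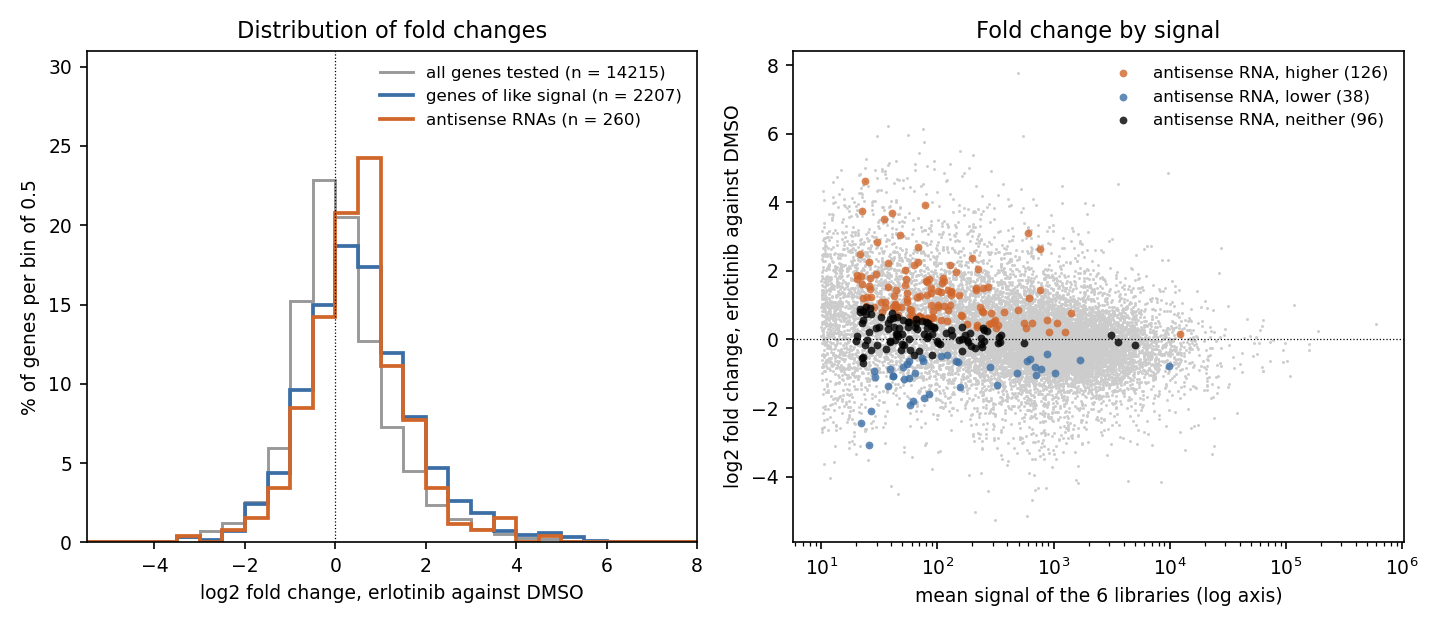
Left, the percent of genes in each bin of 0.5 of the log2 fold change of erlotinib against DMSO, for all genes tested, for genes of any kind with a mean signal between the quartiles of the antisense RNAs, and for the 260 antisense RNAs. Right, the log2 fold change against the mean signal on a log axis, with all genes in grey and antisense RNAs coloured by call. The antisense RNAs and the genes of like signal sit to the right of all genes, with medians of 0.51 and 0.45 against 0.02.

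An antisense RNA could reach a mean of 20 through 1 condition. The mean was at least 20 in both conditions for 217 of them, of which 100 were higher and 33 lower, 46.1% and 15.2% beside 33.6% and 38.8% of all genes with that property. The other 34 that were under 20 in DMSO and 9 that were under 20 with erlotinib had to differ in the direction that kept them, and 26 and 5 of them were called. By at least 1 log2 unit, 68 antisense RNAs were higher and 16 lower among the calls, beside 17.0% and 10.8% of all genes, and 24 of the 68 were among those under 20 in DMSO. Between the quartiles of signal, 27.7% of the antisense RNAs were higher and 6.15% lower by that much, beside 31.3% and 8.07% of the genes of like signal. The 3 libraries of a condition lay wholly above those of the other for 134 antisense RNAs in the direction of erlotinib and for 41 in the direction of DMSO, beside 36.7% and 36.9% of all genes. Between the quartiles of signal these shares were 53.8% and 13.8% for the antisense RNAs and 49.7% and 19.7% for the genes of like signal.

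Antisense RNAs held 0.313%, 0.31% and 0.318% of all signal in the DMSO libraries and 0.384%, 0.375% and 0.380% in the erlotinib libraries. The groups did not overlap. Both parts of this share moved. The summed signal of the antisense RNAs was 74089, 70920 and 72173 in DMSO and 77762, 77083 and 77030 with erlotinib, while the total signal of a library was 23661584, 22884458 and 22661353 in DMSO and 20250205, 20551934 and 20292523 with erlotinib. Over the 217 with a mean of at least 20 in both conditions, the share was 0.310%, 0.307% and 0.315% in DMSO and 0.376%, 0.367% and 0.371% with erlotinib. The median antisense RNA had a signal of 61.8, 59.4 and 62.6 in DMSO and 91.4, 88.1 and 90.8 with erlotinib. The 6 most abundant held about as much signal as all the rest in DMSO, and without them the share was 0.148%, 0.148% and 0.154% in DMSO and 0.221%, 0.213% and 0.219% with erlotinib.

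Of the 8 antisense RNAs with the largest rises, 7 are described, not including the largest. The rule asked that the libraries of the 2 groups not overlap for the largest rises and falls, so that separation is not a finding for any of them. All 7 but SLC9A3-AS1 had a DMSO mean under 20 and reached a mean of 20 through the erlotinib libraries, so they had to be higher with erlotinib. RNF157-AS1, at chr17:76140556-76154648 on the plus strand, had signals of 7.94, 5.57 and 14.98 in DMSO and 176, 115 and 154 with erlotinib (log2 fold change 3.91 ± 0.35 SE, adjusted p = 3.70e-09). The DMSO signals rest on 7, 6 and 14 reads, and the lowest log2 fold change of RNF157-AS1 among the alternatives was 3.03. Its partner RNF157, a ubiquitin ligase, fell (log2 fold change -0.59, adjusted p = 0.000487). The gene that starts nearest to it on the other strand, 689 bases away, is FOXJ1, the regulator of motile cilia, which had 2.27, 1.86 and 0 in DMSO and 159, 145 and 142 with erlotinib. Of the exonic bases of RNF157-AS1, 50.2% lie in exons of other genes.

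FOXD3-AS1, which starts inside the gene of a neural crest transcription factor that was below the signal tested, had 1, 4 and 2 reads in DMSO and 40, 53 and 40 with erlotinib (log2 fold change 3.76, and 2.08 with a pseudocount of 10). ACVR2B-AS1, which starts 930 bases from an activin receptor gene on the other strand, had 7.94, 5.57 and 2.14 in DMSO and 55.4, 112 and 60.8 with erlotinib (3.69 ± 0.48 SE, adjusted p = 6.84e-07). ACVR2B rose with it, by 1.32. With a pseudocount of 10, ACVR2B-AS1 had 2.46. ABHD11-AS1, which RefSeq now lists as the transcribed pseudogene BICDL3P, had 5.67, 7.43 and 2.14 in DMSO and 48.0, 83.2 and 61.8 with erlotinib (3.51, and 2.29 with a pseudocount of 10). ABHD11, a mitochondrial hydrolase gene, had a log2 fold change of -0.10 that did not pass the test (adjusted p = 0.193).

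SLC9A3-AS1, inside the gene of a sodium-proton exchanger of epithelia at chr5:473236-480892 on the plus strand, was the best measured of the large rises. Its signals were 99.8, 124 and 149 in DMSO and 1193, 952 and 1063 with erlotinib (3.11 ± 0.14 SE, adjusted p = 5.81e-14). SLC9A3 rose less, from 420, 369 and 350 to 1271, 1160 and 1104 (1.63). TNRC6C-AS1 had 13.6, 5.57 and 10.7 in DMSO and 96.9, 66.3 and 93.6 with erlotinib (3.04). Its lowest log2 fold change among the alternatives was 2.265. RefSeq does not hold TNRC6C-AS1 by identifier, and its arrangement with TNRC6C could not be read. TNRC6C, a gene of microRNA silencing, rose by 1.77. PTGES2-AS1, whose shared upstream sequence is printed above, had 9.08, 11.1 and 2.14 in DMSO and 66.4, 60.4 and 33.7 with erlotinib (2.85, 1.86 with a pseudocount of 10, and 2.24 without DMSO library 3). PTGES2, a prostaglandin E synthase, fell by 0.69, from 4429, 3375 and 4012 to 2378, 2556 and 2360.

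**Figure D2:**
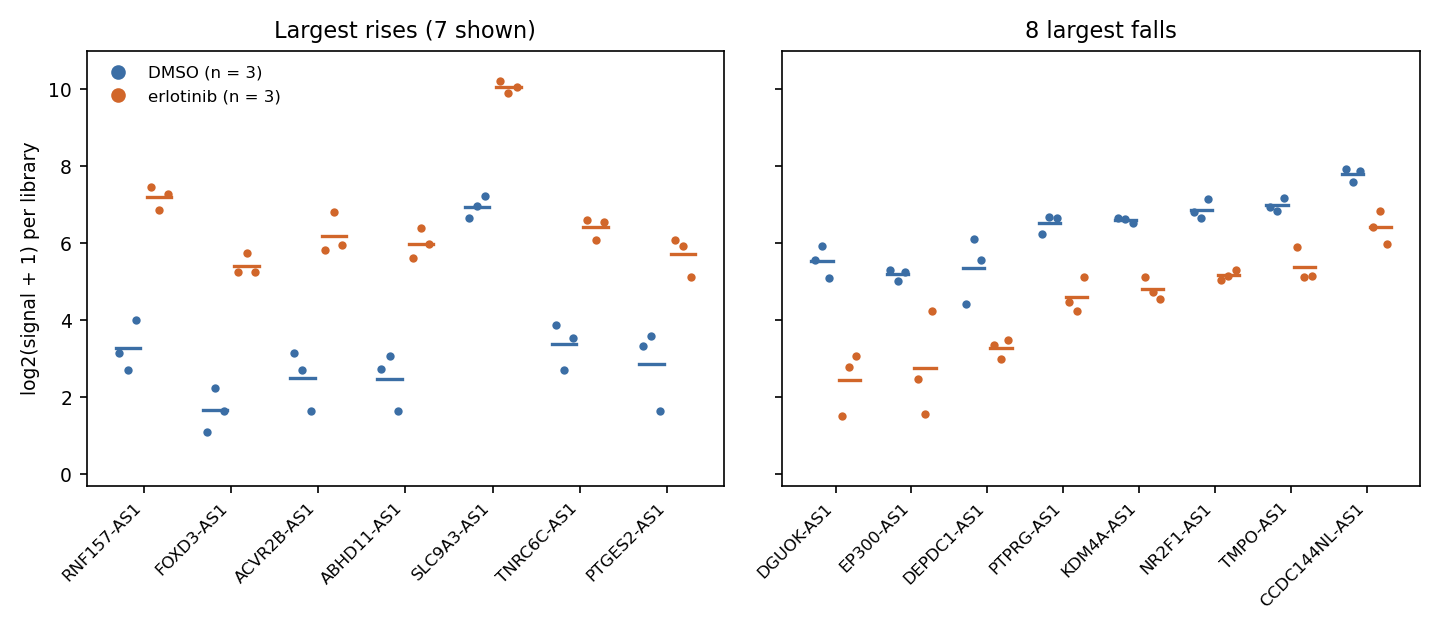
The log2(signal + 1) of each library for 7 of the antisense RNAs with the largest rises (left) and the 8 with the largest falls (right), with DMSO in blue, erlotinib in orange and a bar at the mean of 3 libraries. No antisense RNA shown has overlapping groups, since the rule asked for that, and all rises but that of SLC9A3-AS1 begin from a low signal in DMSO.

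The largest fall was that of DGUOK-AS1. It, EP300-AS1 and DEPDC1-AS1 had an erlotinib mean under 20 and reached a mean of 20 through DMSO, so they had to be lower with erlotinib. DGUOK-AS1, named for the gene of mitochondrial deoxyguanosine kinase, had 46.5, 60.4 and 33.2 in DMSO and 1.85, 5.94 and 7.49 with erlotinib (log2 fold change -3.07 ± 0.52 SE, adjusted p = 2.43e-05, and -1.90 with a pseudocount of 10). DGUOK fell by 0.54. EP300-AS1, named for a histone acetyltransferase, had 38.6, 31.6 and 37.5 in DMSO and 4.61, 1.98 and 17.8 with erlotinib (-2.43, and -1.43 with a pseudocount of 10). The erlotinib libraries differed widely, and the log2 fold change was -1.84 without erlotinib library 5 and -3.17 without library 6. EP300 had a log2 fold change of 0.21 that did not pass the test.

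DEPDC1-AS1 and TMPO-AS1 fell together with genes of proliferating cells that start within 1 kb of them. DEPDC1-AS1 had 20.4, 67.8 and 46.0 in DMSO, a wide spread, and 9.23, 6.93 and 10.3 with erlotinib (-2.08, and -1.44 with a pseudocount of 10). DEPDC1, which is expressed in mitosis, fell from 3972, 4736 and 4104 to 911, 900 and 818 (-2.28). TMPO-AS1 had 123, 114 and 144 in DMSO and 59.1, 33.7 and 34.6 with erlotinib, and both it and TMPO, a protein of the nuclear lamina, had a log2 fold change of -1.60. NR2F1-AS1, which starts inside an orphan nuclear receptor gene, had 111, 100.3 and 140 in DMSO and 32.3, 34.6 and 38.4 with erlotinib (-1.70), and NR2F1 fell by 2.09. For the 3 partner genes, which the rule did not use, all erlotinib libraries lay below all DMSO libraries. The same held for 36.9% of all genes tested.

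PTPRG-AS1 and KDM4A-AS1 fell while the partner rose. PTPRG-AS1, with 89.6% of its exonic bases inside other genes, had 74.9, 101 and 99.5 in DMSO and 21.2, 17.8 and 33.7 with erlotinib (-1.92 ± 0.30 SE, adjusted p = 9.57e-06). PTPRG, a receptor tyrosine phosphatase, rose by 0.86, and C3orf14, which starts 75 bases from PTPRG-AS1 on the other strand, fell by 1.46. KDM4A-AS1 had 99.8, 98.4 and 92.0 in DMSO and 34.1, 25.7 and 22.5 with erlotinib (-1.80), whereas the histone demethylase gene KDM4A rose by 0.47. CCDC144NL-AS1 had 243, 193 and 235 in DMSO and 84.9, 113 and 62.7 with erlotinib (-1.39), and CCDC144NL was below the signal tested.

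The 6 most abundant antisense RNAs changed little, apart from AFAP1-AS1 and NCBP2-AS2. LRRC75A-AS1, now named SNHG29 as a host of small nucleolar RNAs, had signals of 12269, 11153 and 11309 in DMSO and 12814, 13162 and 12672 with erlotinib (log2 fold change 0.16, adjusted p = 0.0317), and the call was lost when any of 4 libraries was left out (adjusted p = 0.0612 to 0.132). AFAP1-AS1, a long noncoding RNA often raised in carcinomas, had 12956, 12129 and 11953 in DMSO and 6941, 7235 and 7420 with erlotinib (-0.78 ± 0.06 SE, adjusted p = 5.56e-10). AFAP1, a protein that crosslinks actin filaments, rose from 863, 843 and 804 to 1628, 1595 and 1862 (1.01). NCBP2-AS2, which RefSeq now lists as a protein-coding gene, fell by 0.59, and NCBP2, whose product binds the RNA cap and whose start lies 146 bases away, had -0.03 (adjusted p = 0.691). TAPT1-AS1, FGD5-AS1 and PAX8-AS1 had log2 fold changes of -0.15, -0.06 and 0.14, and none passed the test. Per kilobase of exon, the mean signal was highest for NCBP2-AS2 (1946), then TAPT1-AS1 (1802) and LRRC75A-AS1 (1367).

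A fixed list of 12 widely studied antisense RNAs held 10 with a mean of at least 20. EGFR-AS1, inside EGFR at chr7:55179750-55188949 on the minus strand, had 175, 172 and 196 in DMSO and 127, 123 and 183 with erlotinib (-0.35 ± 0.18 SE, adjusted p = 0.0885), and the groups overlapped. EGFR, the target of the drug, had 77915, 82437 and 78583 in DMSO and 42831, 43954 and 49830 with erlotinib (-0.81, adjusted p = 2.36e-09). OIP5-AS1, also known as cyrano, fell from 993, 1053 and 960 to 573, 540 and 548 (-0.85), and OIP5, a centromere protein, fell more, by 2.53. NKX2-1-AS1, beside the lineage factor of lung adenocarcinoma, rose from 73.7, 52.0 and 68.5 to 375, 317 and 316 (2.37 ± 0.18 SE, adjusted p = 2.04e-10). NKX2-1 rose from 2864, 2899 and 3243 to 9109, 8344 and 8478 (1.53), and SFTA3, which starts 278 bases from NKX2-1-AS1 on the other strand, rose by 2.07.

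MAPKAPK5-AS1 had 475, 522 and 548 in DMSO and 723, 548 and 682 with erlotinib (0.33, adjusted p = 0.013), with the lowest erlotinib and the highest DMSO library about equal, and MAPKAPK5, a kinase, fell by 0.41. The call for MAPKAPK5-AS1 was lost without DMSO library 1 (adjusted p = 0.0519), erlotinib library 4 (0.101) or 6 (0.0614), and that for MAPKAPK5 when libraries were scaled to their total. HOXA-AS2, in the HOXA cluster, had 77.1, 43.6 and 44.95 in DMSO and 90.4, 80.2 and 74.9 with erlotinib (0.60, adjusted p = 0.0444), and the groups overlapped. The call for HOXA-AS2 was lost when any of 5 libraries was left out (limma adjusted p = 0.0631 to 0.141), with no filter (0.0891), with TMM factors (0.0515), with edgeR (0.0526) and with DESeq2 (0.0736). DLX6-AS1 (0.51, adjusted p = 0.085), ZEB1-AS1 (-0.04) and TTN-AS1 (-0.04) did not pass the test. ZEB1, a repressor of E-cadherin, had a log2 fold change of -0.50 with an adjusted p of 0.0255, and the call was lost at the total count (-0.325, adjusted p = 0.145), with no filter (0.051) and without DMSO library 2 (0.0817) or 3 (0.0646) or erlotinib library 5 (0.0938) or 6 (0.0501). VIM-AS1 and HIF1A-AS2 had mean signals of 15.3 and 4.41.

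**Figure D3:**
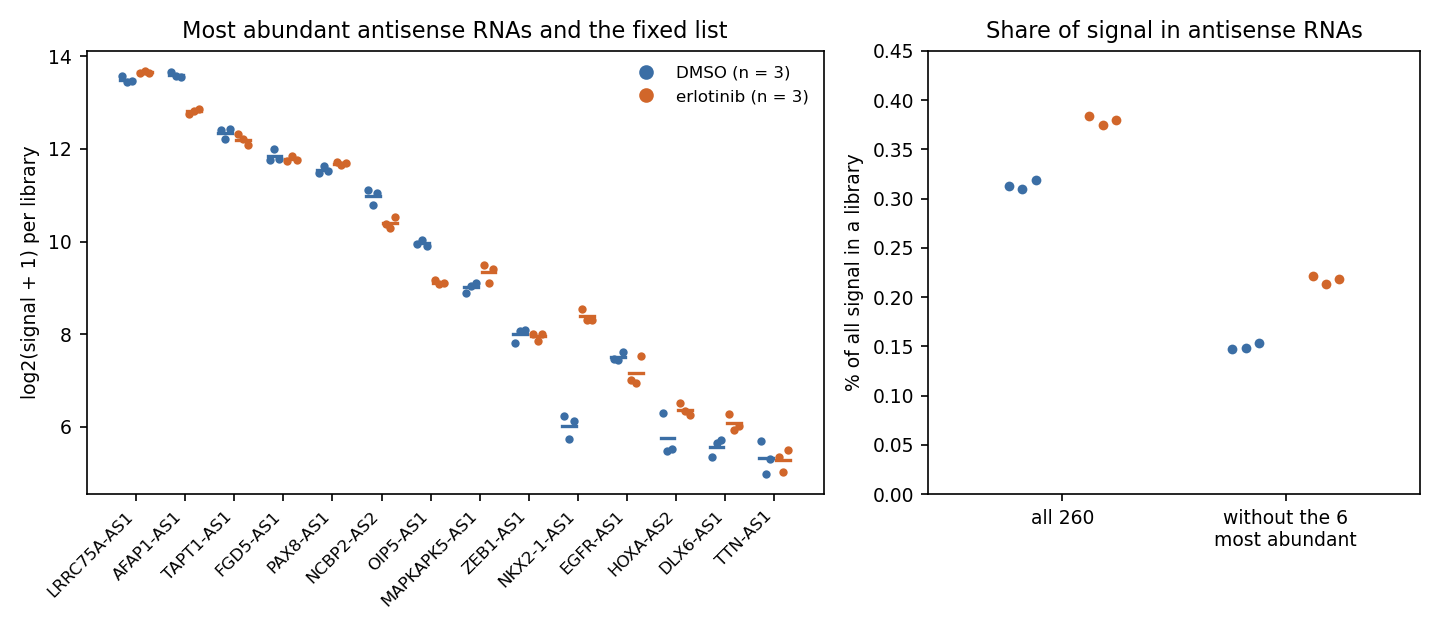
Left, the log2(signal + 1) of each library for the 6 most abundant antisense RNAs and the fixed list, ordered by mean signal, with a bar at the mean of 3 libraries. Right, the percent of all signal of a library that lay in antisense RNAs, with all 260 and without the 6 most abundant. AFAP1-AS1, NCBP2-AS2 and OIP5-AS1 are lower and NKX2-1-AS1 is higher with erlotinib, and the share of signal is higher in each erlotinib library.

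The partner genes had a median signal of 919. Of the 240 tested, 93 were higher and 76 lower (38.8% and 31.7%), close to all genes. Another 14 antisense RNAs had partners with a mean signal under 10, and 5 had a partner that the table does not list, of which 4 are named for a HOX cluster. Of the 241 pairs, both genes were called in the same direction in 74, with 57 higher and 17 lower. They were called in opposite directions in 37, with the antisense RNA higher in 28 and lower in 9. The antisense RNA alone was called in 40 pairs, the partner alone in 59 and neither in 31. Counted over pairs, the antisense RNA was higher in 115 and lower in 36, and the partner higher in 93 and lower in 77. How many shared or opposite calls these totals alone would give was not tested. Across pairs, which are not independent replicates and share libraries, Pearson's r of the log2 fold changes was 0.25 and Spearman's rho 0.27.

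**Figure D4:**
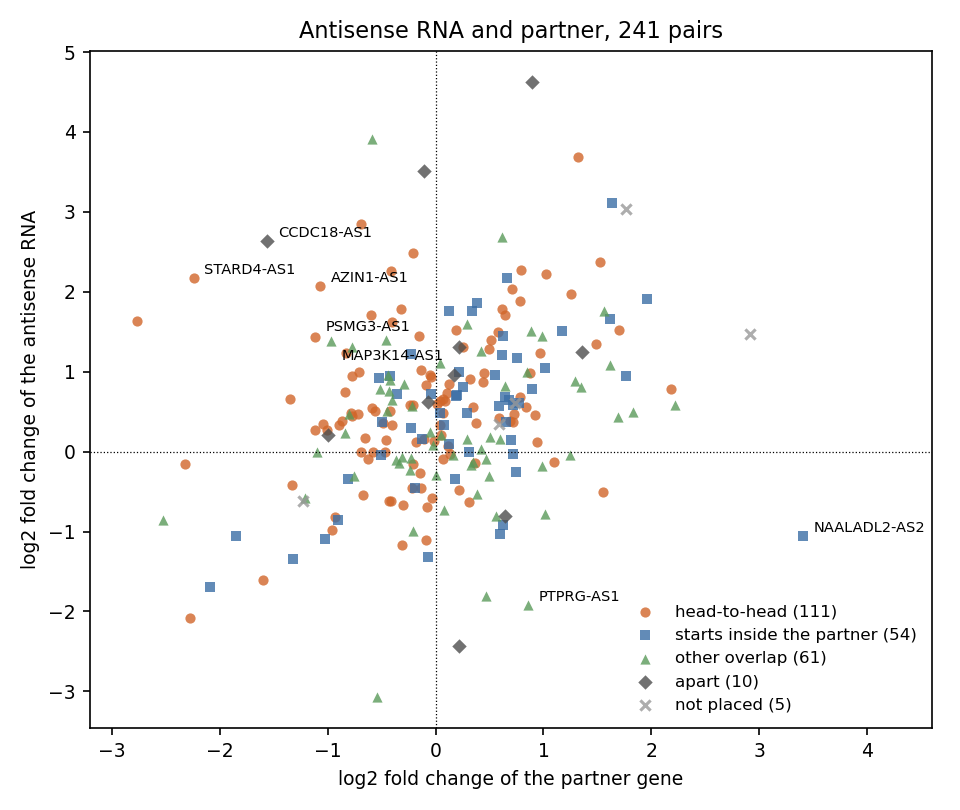
The log2 fold change of the antisense RNA (vertical) against that of its partner (horizontal) for 241 pairs, with colour and shape for the arrangement of the pair, and names for 7 of the pairs called in opposite directions with the largest changes. Points fall in all 4 quadrants, and Pearson's r was 0.25.

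The arrangement could be read from the annotation for 250 antisense RNAs. In 112 the antisense RNA and the partner started within 1 kb of each other on opposite strands, in 61 the antisense RNA started inside the partner, 66 overlapped in another way and 11 lay apart. Of the 112 head-to-head antisense RNAs, 55 were higher and 15 lower (49.11% and 13.39%). Of the 61 that started inside the partner, 31 were higher and 11 lower (50.82% and 18.03%). These shares were near those of genes of like signal, of which 47.1% were higher and 17.7% lower. Neither set was limited to that range of signal, and their median signals were 88.1 and 62.7. In 111 tested head-to-head pairs the calls had the same direction in 34 and the opposite in 18. In 54 tested pairs with the antisense start inside the partner, the direction was the same in 22 and opposite in 6, with a Pearson's r of 0.45 against 0.28 for the head-to-head pairs. In 61 tested pairs that overlapped in another way, it was the same in 11 and opposite in 11, with a Pearson's r of 0.11. In 10 tested pairs that lay apart, it was the same in 4 and opposite in 2. The difference between the arrangements was not tested. Where the exons of the 2 genes overlapped, 51 of 169 pairs had the same direction and 28 the opposite, and where they did not, 20 of 67 and 9 of 67. Whether reads were shared between the 2 genes of a pair was not tested.

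STARD4-AS1 and STARD4 start 309 bases apart and moved in opposite directions. STARD4-AS1 had 32.9, 47.4 and 61.0 in DMSO and 196, 195 and 240 with erlotinib (2.17 ± 0.23 SE, adjusted p = 3.32e-08). STARD4, a sterol transfer protein, fell from 1393, 1754 and 1290 to 307, 282 and 340 (-2.24), and the groups did not overlap for either gene. CCDC18-AS1 was the largest in signal of these rises, at 203, 207 and 219 in DMSO and 1377, 1235 and 1318 with erlotinib (2.64 ± 0.10 SE, adjusted p = 4.72e-15). CCDC18 fell from 612, 755 and 606 to 221, 209 and 235 (-1.56), and its gene lies apart from that of CCDC18-AS1. DR1, a repressor of TBP that starts 96 bases from CCDC18-AS1, fell from 5996, 6314 and 5810 to 3405, 3400 and 3247. CCDC18-AS1 thus rose while its named partner and its start neighbour both fell.

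AZIN1-AS1, now named MAILR, had 83.9, 78.0 and 97.4 in DMSO and 377, 355 and 361 with erlotinib (2.07 ± 0.16 SE), and AZIN1, an inhibitor of antizyme in polyamine control, fell by 1.07. PSMG3-AS1 had 112, 103 and 130 in DMSO and 367, 277 and 296 with erlotinib (1.43), and PSMG3, a proteasome assembly chaperone that starts 41 bases away, fell by 1.12. MAP3K14-AS1 had 57.9, 78.0 and 84.6 in DMSO and 196, 186 and 190.0 with erlotinib (1.38), and MAP3K14, the NF-κB inducing kinase, fell by 0.97. In the other direction, NAALADL2-AS2 had 37.4, 90.1 and 44.95 in DMSO and 30.5, 20.8 and 25.3 with erlotinib (-1.05, adjusted p = 0.0117), and NAALADL2, in which it lies, rose from 115, 100.3 and 74.9 to 1013, 1010 and 1029 (3.40). Without DMSO library 2, which was the highest, NAALADL2-AS2 had -0.68 and an adjusted p of 0.109.

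**Figure D5:**
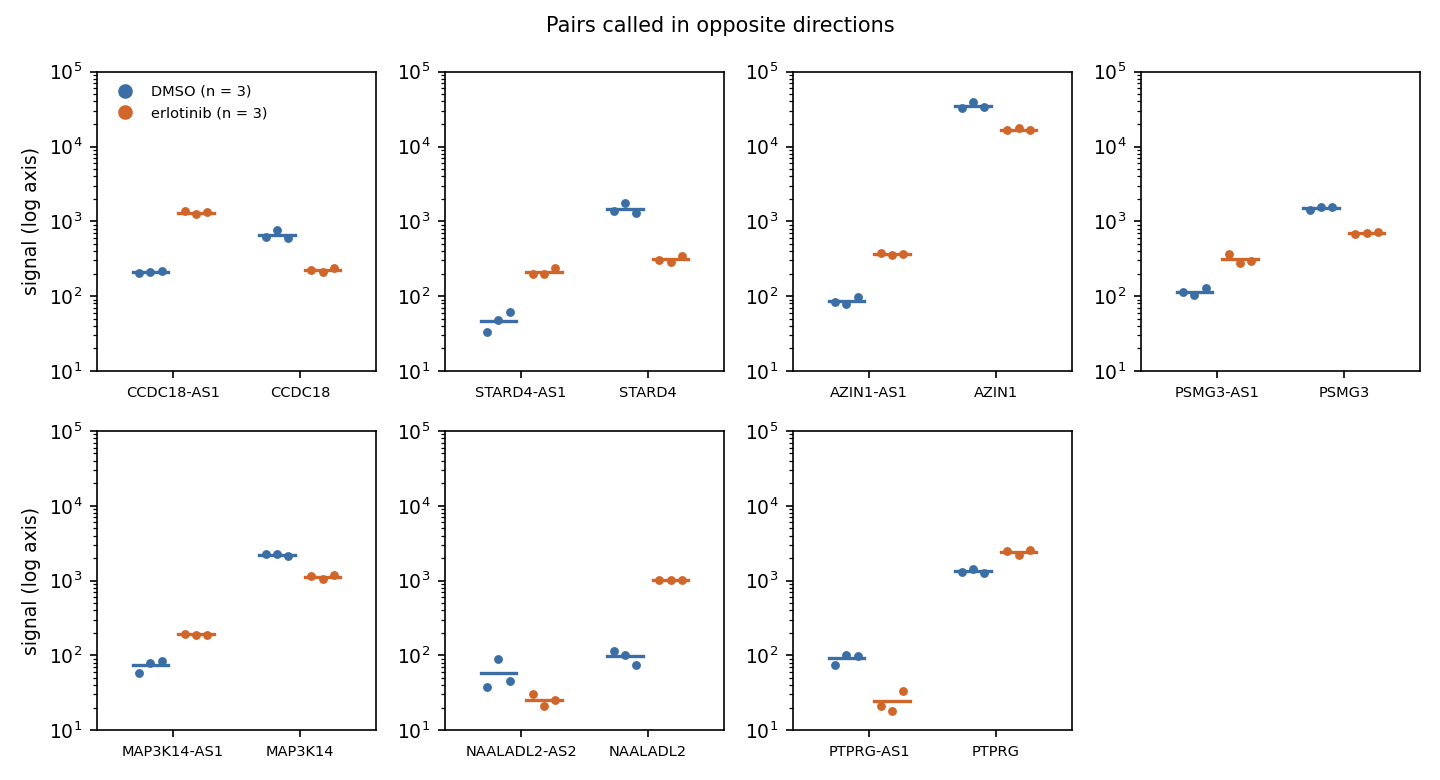
The signal of each library on a log axis for 7 of the pairs called in opposite directions with the largest changes, the antisense RNA on the left of each panel and its partner on the right, with DMSO in blue, erlotinib in orange and a bar at the mean of 3 libraries. The antisense RNA is higher and the partner lower with erlotinib in 5 panels, and the reverse holds for NAALADL2-AS2 and PTPRG-AS1.

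Among pairs that rose together, LNX1-AS2 inside LNX1, a ubiquitin ligase gene, had 4.54, 22.3 and 13.9 in DMSO and 41.5, 47.5 and 48.7 with erlotinib, with log2 fold changes of 1.91 and 1.96 for the antisense RNA and the partner. With a DMSO mean of 13.6, LNX1-AS2 reached a mean of 20 through erlotinib and had to be higher. MMP25-AS1 inside MMP25, a matrix metalloproteinase gene, rose by 1.67, and MMP25 by 1.61. LBX2-AS1, head-to-head with a homeobox gene, had 119, 125 and 178 in DMSO and 421, 359 and 427 with erlotinib (1.53), and LBX2 rose by 1.70. CDKN2B-AS1, the long noncoding RNA ANRIL at the INK4 locus, had 11.3, 30.6 and 35.3 in DMSO and 48.0, 51.5 and 74.9 with erlotinib (1.26, adjusted p = 0.00618). CDKN2B, a cyclin-dependent kinase inhibitor, rose by 0.42, while CDKN2A, which starts 533 bases from CDKN2B-AS1 on the other strand, fell by 0.24. Among pairs that fell together, SLCO4A1-AS1 and the organic anion transporter SLCO4A1 fell by 1.06 and 1.85, and PITRM1-AS1 and the mitochondrial peptidase PITRM1 by 1.09 and 1.03. PITRM1-AS1 had an erlotinib mean of 18.8 and so had to be lower. The genes of this paragraph were chosen after their values were seen.

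The symbol does not always name the gene with the nearest start. On the opposite strand within 1 kb, 151 antisense RNAs had the start of another tested gene, which was the named partner for 110 and a different gene for 41. Those 41 start neighbours were called in the same direction as the antisense RNA in 12 and in the opposite direction in 6. CD27-AS1, for example, rose and starts 132 bases from TAPBPL, a chaperone-like gene of antigen presentation that rose from 349, 376 and 418 to 1300.2, 1287 and 1297 (1.76). The HOX antisense RNAs, which have no single partner, included HOXC-AS1, 151 bases from HOXC9. HOXC-AS1 had 21.6, 22.3 and 21.4 in DMSO and 42.4, 39.6 and 63.7 with erlotinib (1.09), and HOXC9, a body-patterning transcription factor, rose by 0.89. HOXC-AS2 rose by 1.36 and HOXB-AS3 by 0.54.

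The identity of some symbols has changed. RefSeq holds 259 of the 260 by identifier, 228 under the same name, 21 under a name ending in DT for divergent transcript and 10 under another name. Of the 21 divergent transcripts, 10 were higher and 4 lower (47.6% and 19.0%). Genes of like signal had 47.1% higher and 17.7% lower, and all genes tested 35.3% and 35.4%. The annotated exons lay wholly outside every other gene for 22 antisense RNAs. Of these, 10 were higher and 3 lower (45.5% and 13.6%), beside 47.1% and 17.7% of genes of like signal. Neither the 21 nor the 22 were limited to that range of signal. Whether reads of other genes were counted for the 22 was not tested. RNASEH1-AS1 was the largest fall among them, with 642, 644 and 631 in DMSO and 310.1, 339 and 319 with erlotinib (-0.98 ± 0.10 SE, adjusted p = 4.23e-08), and RNASEH1, a nuclease for RNA in RNA-DNA hybrids, fell by 0.96. ZNF528-AS1 had 97.6, 116 and 126 in DMSO and 332, 301 and 325 with erlotinib (1.49). SCAMP1-AS1 rose by 0.83 while SCAMP1, a protein of secretory vesicles, had -0.09 (adjusted p = 0.303).

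The members just above the mean of 20 were ZSCAN16-AS1, MKNK1-AS1 and CEBPB-AS1, at means of 20.1, 20.2 and 20.3. ZSCAN16-AS1 and MKNK1-AS1 had log2 fold changes of -0.04 and 0.09 that did not pass the test, and CEBPB-AS1 had 1.76, or 1.10 with a pseudocount of 10. CEBPB-AS1 had a DMSO mean of 9.58 and an erlotinib mean of 31.1, so it had to be higher. Just below were ID2-AS1, FOXP4-AS1 and FAM222A-AS1 at 19.8, 19.7 and 19.7, with log2 fold changes of 0.93, -1.45 and -2.46. ID2-AS1 did not pass the test (limma adjusted p = 0.0837), while FOXP4-AS1 (0.00964) and FAM222A-AS1 (0.000235) did. Antisense RNAs with a mean of 10 to 20 numbered 83, of which 23 were higher and 6 lower (27.7% and 7.23%). Among all genes tested, 35.3% were higher and 35.4% lower, at a median signal of 572 against 14.8 for these 83. Other noncoding classes gave 91 higher and 21 lower of 180 long intergenic RNAs with a LINC symbol (50.6% and 11.7%). They gave 14 and 3 of 32 with a DT symbol (43.8% and 9.38%). The median signal was 46.1 for the LINC and 91.1 for the DT genes. Genes of like signal to the antisense RNAs had 47.1% higher and 17.7% lower, but neither class was limited to that range of signal. Of 16 small nucleolar RNA hosts with an SNHG symbol, 3 were higher and 8 lower (18.8% and 50%). The SNHG genes had a median log2 fold change of -0.45 and a median signal of 335, against 0.51 and 76.7 for the antisense RNAs. The difference was not tested.

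The RefSeq promoters (250 bases before to 50 after the start) held 200 of the 260 antisense RNAs. Their median GC content was 65.3%, against 65% for the promoters of tested genes and 58.3% for all 27305 promoters. The ETS core CCGGAAG was found on either strand in 16% of antisense promoters, 18.9% of those of tested genes and 10.7% of all. The cAMP response element TGACGTCA was found in 4.5%, 3.15% and 1.98%, and the E-box CACGTG, bound by MYC and USF factors, in 9.5%, 9.92% and 7.43%. The AP-1 element TGANTCA was found in 5.5%, 4.74% and 7.76%, the forkhead element GTAAACA in 3.5%, 2.31% and 3.41%, TATAAA in 5%, 5.98% and 12.0%, and the palindrome bound by NRF1 in 3.5%, 2.35% and 1.36%. The GC content of the antisense promoters was close to that of the tested genes. TGACGTCA, GTAAACA and the palindrome bound by NRF1 were found in only 9, 7 and 7 antisense promoters. No difference in motifs was tested.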

How the data were processed

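RNA-seq of 6 HCC827 libraries was used, 3 with DMSO and 3 with erlotinib. Read pairs were aligned by the authors against GRCh38 using Bowtie2 2.3.4, which leaves reads that cross introns unsplit. They counted uniquely mapped reads with featureCounts 1.6.3. The signal values the authors deposited are those reads divided by 1 size factor per library, since 100% of the values were whole multiples of their library's step (tolerance 0.001). The erlotinib columns carry numbers that no erlotinib title has, and were assigned to the condition only.

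Genes whose mean signal reached 10 were tested with limma 3.58.1 (R 4.3.3) on log2(signal + 1) with a variance trend, two-sided, with Benjamini-Hochberg adjustment and a threshold of 0.05. A log2 fold change is on that scale and understates the change of low genes. A study of 3 against 3 samples cannot reach a permutation p under 0.1, so no single-gene permutation test was made. Alternatives were edgeR 4.0.16 and DESeq2 1.42.0 on the recovered reads, limma-voom, other scalings, pseudocounts, filters and thresholds, and each library left out. On simulated reads, the fit called 87 of 98 genes changed 2-fold and 94 of 97 changed 4-fold, and 6.22% of its 193 calls were false. Far fewer genes were changed there than were called in these data, so that share cannot be carried over to them.

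The antisense RNAs, the lists and the tests were chosen with earlier results of these data known. The genes named are the 8 largest rises and falls whose libraries do not overlap, the 6 highest means, the 8 pairs called in opposite directions with the largest changes, 3 genes on either side of the mean of 20, a fixed list of 12, and the partner of each. A few of these are not reported here, and stay only in the counts. Others were chosen after their values were seen. Positions and sequences are from RefSeq (GRCh38.p14), strand and exons from GENCODE 44. Python 3.11.15 and matplotlib 3.10.9 were also used.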

Additional observations from a re-analysis of the deposited data

How the results depend on the processing

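The counts of antisense RNAs kept within 1.5 times of 126 higher and 38 lower under each of the 16 other fits and thresholds, at 89 to 150 higher and 27 to 38 lower, and no antisense RNA was called in opposite directions by any of them. Leaving out 1 library gave 105 to 121 higher and 31 to 35 lower. Partners gave 85 to 116 higher and 63 to 80 lower, pairs of the same direction 50 to 87 and pairs of opposite direction 28 to 40. Counts over fewer antisense RNAs were smaller by construction. Those with exons outside every other gene gave 10 higher and 3 lower of 22 (45.5% and 13.6%). Those sharing no exonic base with another gene gave 25 higher and 7 lower of 48 (52.1% and 14.6%). Genes of like signal had 47.1% higher and 17.7% lower, but neither set was limited to that range of signal. Both sets were chosen after seeing the data. Pairs whose exons do not overlap gave 20 of the same and 9 of opposite direction.

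Of the 55 named genes and partners that were called, 49 stayed called in every alternative that tested them. The exceptions were HOXA-AS2, LRRC75A-AS1, MAPKAPK5-AS1, MAPKAPK5, NAALADL2-AS2 and ZEB1. No called gene changed sign. The uncalled genes that did were near 0. Scaled to the total count, the log2 fold changes were 0.076 for ABHD11, 0.12 for FGD5-AS1, 0.16 for MKNK1, 0.15 for NCBP2, 0.032 for TAPT1-AS1, 0.13 for TTN-AS1, 0.14 for ZEB1-AS1 and 0.13 for ZSCAN16-AS1. With limma-voom they were 0.0015 for TTN-AS1 and 0.0072 for ZSCAN16-AS1. Leaving out 1 library gave -0.11 to 0.014 for FGD5-AS1, -0.25 to 0.36 for MKNK1-AS1, -0.082 to 0.025 for NCBP2, -0.21 to 0.14 for TTN-AS1, -0.13 to 0.015 for ZEB1-AS1 and -0.38 to 0.17 for ZSCAN16-AS1. The cause was not tested. A chi-square of the reads per degree of freedom was 23.5 and 14.8 for DMSO library 2 against DMSO libraries 1 and 3. It was 7.74 between DMSO libraries 1 and 3, and 4.15 to 6.14 between erlotinib libraries. Pearson's r of log2(signal + 1) over genes was 0.983 to 0.990 within a condition. EGFR-AS1 passed the threshold only without erlotinib library 6 (-0.53, adjusted p = 0.0203, limma), and PAX8-AS1 with edgeR (adjusted p = 0.046), limma-voom, the total count or without DMSO library 2. EP300 passed it in 7 of the alternatives, TAPT1-AS1 without DMSO library 2 or erlotinib library 4, ABHD11 without DMSO library 2, and DLX6-AS1, CEBPB and TTN at the total count.

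No paired analysis was possible because the columns of the erlotinib libraries carry no replicate number of the labels. Low reads limit the size of the largest changes. With a pseudocount of 10 in place of 1, the log2 fold change of FOXD3-AS1 was 2.08 in place of 3.76.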
